A study of Mus musculus with 5 samples.

Results

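Collagens are the main structural proteins of the extracellular matrix, and each collagen chain is the product of a gene whose symbol gives the collagen type and the number of the chain. All symbols of this form in the deposited files were taken, which gave 44 collagen chain genes among 23420 gene symbols. The chains were grouped as fibrillar (11 chains), basement membrane (6), type VI (6), FACIT (9, fibril-associated collagens with interrupted triple helices) and other (12).

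The values came from the dentate gyrus (DG), the part of the hippocampus where granule cells receive cortical input and where new neurons are added in the adult. Polyadenylated RNA of the microdissected DG of wild-type CD1 mice, 4 months old by the labels, was sequenced in 5 libraries, 1 per group and without replicates. LD mice (locked disc) lived alone with a disk that could not turn, CE mice (complex environment) lived in company with a locked disk and tunnels, and RUN mice (exercise) lived alone with a disk on which they could run. RNA of several mice was pooled in each library, and the L-RUN (low runners) and H-RUN (high runners) libraries came from the mice of the RUN library, divided by running distance. CE therefore differed from LD in company as well as in tunnels. CD1 is an outbred stock, and the pools do not show how single mice differed.

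A collagen molecule is a rope of chains, either of identical chains or of different ones, that wind around each other in the endoplasmic reticulum and are then secreted. In the brain, fibrillar collagens and type VI collagen are found mainly in the meninges and around larger vessels, type IV collagen forms the sheet-like network of the vascular and pial basement membrane, and some transmembrane and FACIT collagens are made by neurons. The comparisons below ask which chains differed with running and which with an environment enriched without running.

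Each value is a regularized log value, the log2 of the normalized read count of a gene after the authors shrank the values of each gene towards its mean over the libraries. A difference of 1 would be a doubling, and shrinkage makes differences of weakly expressed genes too small. Genes with a mean value of at least 5 over the 5 libraries were called expressed, which left 13550 genes and 32 of the 44 collagen chains. A chain was counted as higher or lower at a difference of at least 0.3. With 1 library per group no test of a difference is possible, so all differences below describe these libraries. Read counts were not used here and the depth of the libraries is unknown. The single measure of error is the RUN library, set against the mixture of L-RUN and H-RUN that its RNA should equal. This comparison gave a technical SD of a difference of 0.0365 over all expressed genes, so that the cut-off of 0.3 was 8.23 times the technical SD. The 32 expressed chains had residuals between -0.10 and 0.09 with a median of 0.02, and 0 chains had a residual of 0.3 or more. The technical SD does not hold the differences between mice. It does not hold those between dissections or RNA extractions either, because RUN, L-RUN and H-RUN were pooled from RNA of the same mice.

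Of the 32 expressed chains, 10 passed the cut-off in at least 1 of the 6 comparisons made, and 22 passed it in none of them. Of all expressed genes, 4.44% passed it in at least 1 of the 6. The 10 were the fibrillar chains Col1a1, Col1a2, Col3a1, Col5a1 and Col11a1, the type VI chains Col6a1, Col6a2 and Col6a3, the FACIT chain Col9a2 and the transmembrane chain Col23a1.

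The sequences upstream of 5 of them are shown, because these chains moved partly together and partly apart in CE and L-RUN. RefSeq windows of the build GRCm38.p6 were matched by symbol for 9 of the 10 chains. Of the 250 bases before each annotated start, the longest stretch outside annotated exons and the span of the chain's own gene is printed. It runs 5′ to 3′ on the strand of the gene, and introns of other genes were not left out. Capitals mark matches to GGGCGG, the GC box, to CCAAT, or to TATAAA, on either strand. The type VI chains are Col6a1 (chr10:76726169-76726294, minus strand), Col6a2 (chr10:76623631-76623880, minus strand) and Col6a3 (chr1:90844002-90844221, minus strand), and the fibrillar chains are Col1a2 (chr6:4505370-4505492, plus strand) and Col3a1 (chr1:45311288-45311537, plus strand).
Col6a1: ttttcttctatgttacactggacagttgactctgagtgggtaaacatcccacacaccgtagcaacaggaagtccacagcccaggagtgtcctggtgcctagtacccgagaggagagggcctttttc
Col6a2: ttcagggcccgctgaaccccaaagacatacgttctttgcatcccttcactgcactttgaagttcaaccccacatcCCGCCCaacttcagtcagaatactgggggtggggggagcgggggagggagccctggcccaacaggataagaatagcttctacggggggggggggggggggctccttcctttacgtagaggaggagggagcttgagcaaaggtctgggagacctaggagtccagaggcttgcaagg
Col6a3: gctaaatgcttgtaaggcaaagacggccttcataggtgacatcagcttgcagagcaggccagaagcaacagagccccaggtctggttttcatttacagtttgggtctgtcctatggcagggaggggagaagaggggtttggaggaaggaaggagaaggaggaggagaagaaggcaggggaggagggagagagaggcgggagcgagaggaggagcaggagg
Col1a2: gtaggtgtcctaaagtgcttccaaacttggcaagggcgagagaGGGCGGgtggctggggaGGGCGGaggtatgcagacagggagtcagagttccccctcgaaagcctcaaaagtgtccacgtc
Col3a1: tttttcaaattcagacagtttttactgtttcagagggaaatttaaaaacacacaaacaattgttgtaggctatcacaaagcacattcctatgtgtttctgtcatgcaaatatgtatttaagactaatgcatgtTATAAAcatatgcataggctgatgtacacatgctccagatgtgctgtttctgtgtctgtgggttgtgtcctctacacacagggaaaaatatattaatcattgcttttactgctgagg

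Within the whole 250 bases upstream, Col1a2 had GGGCGG at 205 and 188 bases and CCAAT at 109 bases before its start, the last of them past the printed stretch. The Col6a2 window shown held GGGCGG on the opposite strand, starting 175 bases upstream, and the window of a second annotated start of Col6a2 held 3 matches to it. The window of Col3a1 held TATAAA at 117 bases. The windows of Col6a1 and Col6a3 held 0 matches to the 3 motifs. Among the 28 windows of the 26 expressed chains that had one, GGGCGG was found in 67.9%, CCAAT in 39.3% and TATAAA in 10.7%. Among all 32851 windows of the same length the shares were 32.7%, 33.8% and 12.4%. The motifs were counted on both strands, matches may share bases, and windows were not matched for base composition.

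CE held higher levels of 6 collagen chains than LD, and they came from 3 classes. Of the 32 expressed chains 6 were higher and 0 lower, while 0.332% of all expressed genes were higher and 0.266% lower. The 6 were Col6a1, Col6a2, Col1a1, Col1a2, Col5a1 and Col23a1, and the smallest difference among them was 0.37 and the largest 0.52. With the median of the 5 libraries as the baseline in place of LD, 3 chains were higher, and Col1a2 had 0.03, Col1a1 0.20 and Col23a1 0.298. The next chain below the cut-off, Col3a1, had a difference of 0.20. The median difference of the 32 chains in CE was 0.04, against -0.0018 for all expressed genes. Most differences were thus small, although 23 of the 32 chains (71.9%) were above LD, against 49.2% of all expressed genes. With the trend with GC content removed, most of the 32 chains were instead below 0 in CE, while the 6 stayed past the cut-off. In RNA of whole tissue, more cells of a type and more RNA per cell cannot be told apart. Of the 15 expressed markers of leptomeningeal fibroblasts, cells of the pia that make fibrillar collagens, 1 was higher in CE. Of the 3 expressed choroid plexus markers 1 was higher, Ttr by 0.62, with a median of 0.03. Their part in the differences of the chains was not tested.

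L-RUN also held 6 higher chains and 0 lower, against 0.797% of all expressed genes higher and 2.33% lower. They were Col1a2, Col3a1, Col6a3, Col6a1, Col1a1 and Col9a2, with differences from 0.33 to 0.67, and Col6a2 was just under the cut-off at 0.299. The median of the 32 chains was 0.12, and 25 of the 32 were above LD, against 49.3% of all expressed genes. With the median of the 5 libraries as the baseline 2 chains, Col3a1 and Col6a3, were higher. In the same library 8 of the 15 leptomeningeal markers were higher than LD, with a median of 0.35, and their part in the result was not tested. A single LD library served both comparisons, so the values are only set side by side: in CE and L-RUN the differences were 0.45 and 0.67 for Col1a2, 0.52 and 0.46 for Col6a1, 0.44 and 0.17 for Col5a1, and 0.00 and 0.51 for Col6a3.

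H-RUN held 0 chains past the cut-off in either direction, against 0.354% of all expressed genes higher and 0.472% lower. The chain farthest from LD was Col15a1, at -0.28, and 18 of the 32 (56.2%) were below LD, close to the 52.0% of all expressed genes. RUN, the mixture of both kinds of runners, held 1 higher chain, Col1a2, and 0 lower, against 0.362% and 0.952% of all expressed genes. Above LD in RUN were 23 of the 32 chains (71.9%), against 49.3% of all expressed genes. In RUN 4 of the 15 leptomeningeal markers were higher than LD, Igf2 (0.57), Aldh1a2 (0.44), Slc6a13 (0.41) and Slc22a6 (0.35), with a median of 0.16, and their part in the result was not tested. Col6a3, Col7a1, Col3a1 and Col20a1 were just outside on the higher side in RUN with differences of 0.27, 0.26, 0.26 and 0.26, and Col25a1 on the lower side with -0.26.

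**Figure D1:**
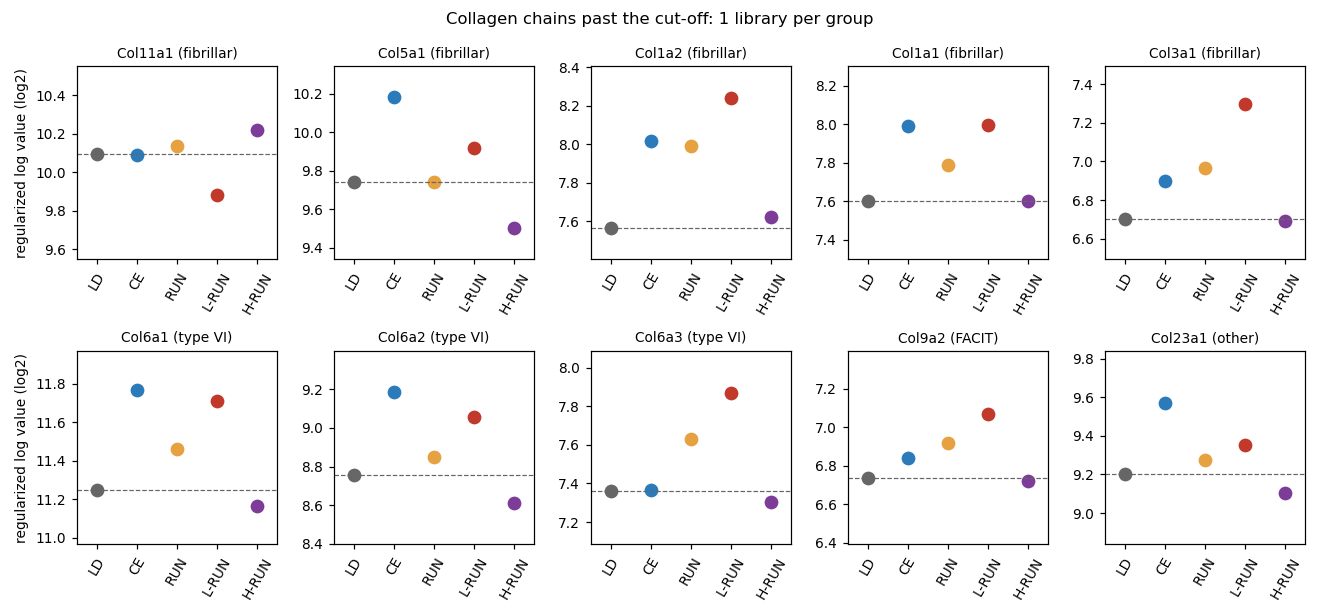
Regularized log values (log2) of the 10 collagen chains past the cut-off in any comparison, 1 point per library and 1 panel per chain, all panels spanning the same range of 1. The dashed line is the LD value. H-RUN is below LD for 7 of the 10 chains, L-RUN is the highest library for Col1a2, Col1a1, Col3a1, Col6a3 and Col9a2, CE for Col5a1, Col6a1, Col6a2 and Col23a1, and H-RUN for Col11a1.

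Among the fibrillar collagens, type I collagen, the main fibril of skin, bone and meninges, is built from the chains of Col1a1 (chr11:94936224-94953042) and Col1a2 (chr6:4505618-4541543, positions by RefSeq on GRCm38.p6). Col1a2 stood at 7.57 in LD, 8.02 in CE, 8.24 in L-RUN, 7.62 in H-RUN and 7.99 in RUN. Col1a1 had 7.60 in LD, 7.99 in CE, 7.998 in L-RUN, 7.60 in H-RUN and 7.79 in RUN. Both were lowest in LD and highest in L-RUN, and H-RUN stood next to LD. The difference from LD was 0.45 in CE and 0.67 in L-RUN for Col1a2, a fold of 1.37 and 1.60, and 0.39 and 0.40 for Col1a1. The chains differed by similar amounts in CE, with a gap of -0.06 between the difference of Col1a1 and that of Col1a2, and the gap was -0.28 in L-RUN.

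Col3a1 (chr1:45311538-45349706) makes type III collagen, a homotrimer found beside type I in pliable tissue and vessel walls. Its values were 6.70 in LD, 6.90 in CE, 7.30 in L-RUN, 6.69 in H-RUN and 6.97 in RUN. L-RUN stood alone above the other libraries, and its difference from LD of 0.59 was 13.5 times the technical SD of genes at this level. Col3a1 lies next to Col5a2 on chromosome 1, 24624 bases apart with 0 protein-coding genes between them. Col5a2 differed from LD by 0.12 in L-RUN, so that the neighbouring chains did not share the size of the difference, with a gap of 0.47.

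Col5a1 (chr2:27886381-28039510) and Col5a2 (chr1:45374331-45503282) make chains of type V collagen, which starts fibrils and sets their width. Col5a1 had values of 9.74 in LD, 10.18 in CE, 9.92 in L-RUN, 9.50 in H-RUN and 9.74 in RUN. CE was highest and H-RUN lowest, 0.44 above and 0.24 below LD. Col5a2 had 9.17 in LD, 9.22 in CE, 9.29 in L-RUN, 9.16 in H-RUN and 9.28 in RUN. Thus Col5a1 was past the cut-off in CE, where its partner differed from LD by 0.05. RUN equalled LD for Col5a1 while L-RUN and H-RUN lay on both sides of it, which is what a mixture of these libraries gives, with a residual of 0.01.

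Col11a1 and Col11a2 make chains of type XI collagen, the counterpart of type V in cartilage, and both were well expressed in these DG libraries. Col11a1 had 10.10 in LD, 10.09 in CE, 9.88 in L-RUN, 10.22 in H-RUN and 10.13 in RUN. It was the single chain lower in L-RUN than in H-RUN past the cut-off, with a difference of -0.34. Col11a2 had 10.16 in LD, 10.14 in CE, 10.38 in L-RUN, 10.27 in H-RUN and 10.37 in RUN. In L-RUN the partners lay on opposite sides of LD, with a gap of -0.44 between their differences. Of the other fibrillar chains, Col27a1 and Col5a3 stayed within 0.10 of LD in the 4 other libraries. Col2a1, the chain of cartilage fibrils, had a mean of 4.99 just under the limit for expressed genes, and Col24a1 a mean of 4.03.

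By class, the median difference from LD in CE was 0.05 for the 9 expressed fibrillar chains, 0.03 for the 3 of basement membrane, 0.04 for the 6 of type VI, 0.04 for the 7 FACIT chains and 0.04 for the 7 others. In L-RUN the medians were 0.17, 0.14, 0.19, 0.06 and 0.07 in the same order, and in H-RUN -0.01, 0.06, -0.06, 0.04 and -0.01. Against a median of all expressed genes of -0.0018 in CE, -0.0018 in L-RUN and -0.0035 in H-RUN, the 5 classes were above it in CE and L-RUN. The CE medians were about as large as the technical SD of a single gene, and with the trend with GC content removed those of basement membrane, FACIT and other chains were below 0, at -0.0176, -0.00657 and -0.0306. With the median baseline the CE medians were 0 for fibrillar, FACIT and other chains and -0.0103 for basement membrane. That baseline includes CE itself, so a value of 0 arises where CE is the median library. In CE and in L-RUN against LD, the chains past the cut-off were a minority of every class. They were at most 3 of the 9 fibrillar and 2 of the 6 type VI chains, all higher. Of all expressed genes 0.332% were higher in CE and 0.797% in L-RUN. L-RUN against H-RUN held 4 of the 9 fibrillar chains higher and 1 lower, and 3 of the 6 type VI chains higher. The shares of all expressed genes there were 0.561% higher and 0.974% lower.

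**Figure D2:**
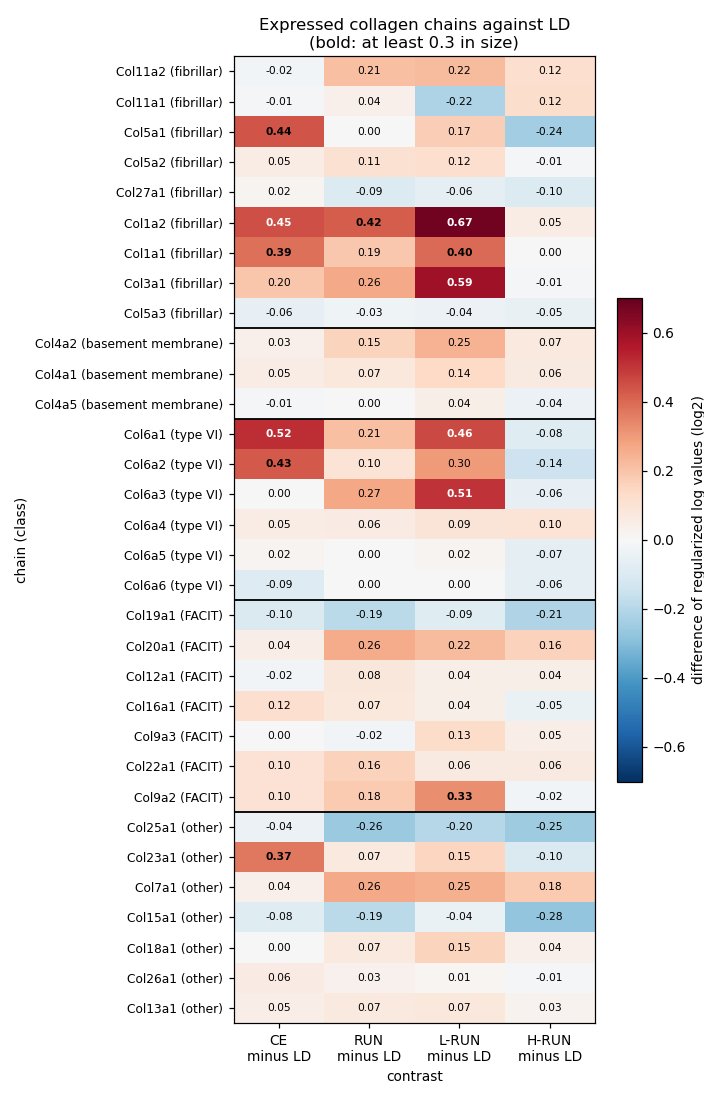
Differences from LD of the regularized log values (log2) of the 32 expressed collagen chains, by class and by mean level within a class, for CE, RUN, L-RUN and H-RUN. Red is higher and blue lower than LD, and bold values are at least 0.3 in size. The H-RUN column holds no bold value, and the 3 basement membrane chains hold none in any column.

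Type VI collagen forms beaded filaments next to basement membranes, and its common molecule holds 1 chain each of Col6a1 (chr10:76708792-76726044), Col6a2 (chr10:76595756-76623630) and Col6a3 (chr1:90766860-90844001). Col6a1 had 11.25 in LD, 11.77 in CE, 11.71 in L-RUN, 11.17 in H-RUN and 11.46 in RUN. Col6a2 had 8.76 in LD, 9.18 in CE, 9.06 in L-RUN, 8.61 in H-RUN and 8.85 in RUN. The order of the libraries was the same for both chains, with CE highest, L-RUN next and H-RUN lowest. Col6a3 had 7.36 in LD, 7.37 in CE, 7.87 in L-RUN, 7.30 in H-RUN and 7.63 in RUN. The third chain of the molecule was therefore at its LD level in CE and 0.51 above it in L-RUN.

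The gap between the differences of Col6a1 and Col6a3 was 0.51 in CE and -0.05 in L-RUN, and that between Col6a2 and Col6a3 was 0.42 and -0.21. Col6a1 and Col6a2 are neighbours on chromosome 10, with 85161 bases and 0 protein-coding genes between them, while Col6a3 lies on chromosome 1. Against LD, the difference of Col6a1 exceeded that of Col6a2 by between 0.06 and 0.16 in the 4 other libraries. Col18a1, which lies on chromosome 10 as well, 326133 bases from Col6a1, differed from LD by 0.00 in CE. The alternative chains Col6a4, Col6a5 and Col6a6, which can take the place of Col6a3 and lie in a row on chromosome 9, had means of 6.39, 6.37 and 6.20 and differed from LD by at most 0.10 in size. The type VI median holds these weakly expressed chains as well as the trio.

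The 3 expressed basement membrane collagens held 0 chains past the cut-off in the 6 comparisons. Of all expressed genes 4.44% passed it in at least 1 of them, and with 3 chains 0 lies near that share. With the trend with transcript length removed, Col4a2 passed it in L-RUN, at 0.33. Col4a1 and Col4a2 make the main type IV collagen of vessels. Col4a1 had 10.90 in LD, 10.95 in CE, 11.04 in L-RUN, 10.96 in H-RUN and 10.97 in RUN. Col4a2 had 11.61 in LD, 11.64 in CE, 11.85 in L-RUN, 11.67 in H-RUN and 11.76 in RUN. LD was lowest and L-RUN highest for both, and the largest difference from LD was 0.25, for Col4a2 in L-RUN. The genes lie head to head on chromosome 8 with starts that overlap by 85 bases, and without strand in the library kit the few reads there cannot be assigned to one gene. Col4a5, a chain of a less common type IV network, differed from LD by between -0.04 and 0.04. Col4a3, Col4a4 and Col4a6 had means of 3.68, 3.09 and 4.83 and were below the limit for expressed genes.

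FACIT collagens sit on the surface of fibrils, and 7 of the 9 chains were expressed. Col9a2, a chain of type IX collagen of cartilage and eye, had 6.74 in LD, 6.84 in CE, 7.07 in L-RUN, 6.72 in H-RUN and 6.92 in RUN. It was the single FACIT chain past the cut-off, with 0.33 in L-RUN. Its partner Col9a3 had 8.30, 8.31, 8.43, 8.35 and 8.29 in the same order of libraries, within 0.13 of LD, and the third partner, Col9a1, had a mean of 4.42. Col9a3 shares 6.07% of its exon bases with Tcfl5, the largest share among the expressed chains, and reads of such overlaps cannot be assigned without strand. Col19a1, which is made by hippocampal interneurons, had 10.91 in LD, 10.80 in CE, 10.82 in L-RUN, 10.70 in H-RUN and 10.72 in RUN, with LD highest. Col20a1 went the other way, with 9.25 in LD, 9.30 in CE, 9.47 in L-RUN, 9.41 in H-RUN and 9.51 in RUN. Col12a1, Col16a1 and Col22a1 differed from LD by between -0.05 and 0.16.

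Among the other collagens, Col23a1 and Col25a1 make transmembrane chains. Col23a1 had 9.20 in LD, 9.57 in CE, 9.35 in L-RUN, 9.11 in H-RUN and 9.27 in RUN, with CE highest and the other libraries spread about as widely as CE lay above L-RUN. Col25a1, whose product was found in amyloid plaques and is made by neurons, had 12.42 in LD, 12.38 in CE, 12.22 in L-RUN, 12.18 in H-RUN and 12.16 in RUN. It was lower in the 3 libraries of runners than in LD and CE, by 0.20 to 0.26 against LD, and did not pass the cut-off. Col15a1 and Col18a1 belong to basement membrane zones. Col15a1 had 7.88, 7.80, 7.69, 7.84 and 7.60 in LD, CE, RUN, L-RUN and H-RUN, and Col18a1 had 7.43, 7.44, 7.50, 7.59 and 7.47. Col7a1, the chain of anchoring fibrils of skin, had 8.44, 8.48, 8.70, 8.69 and 8.62, and was higher in the 3 libraries of runners by 0.18 to 0.26. Col13a1 and Col26a1 differed from LD by between -0.01 and 0.07.

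Of the 12 chains that were not expressed, 0 were listed at 0 in all libraries. The lowest mean was that of Col10a1, the chain of growth plate cartilage, at 2.15. Values of such genes are shrunk the most, and no difference of theirs is read here.

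**Figure D3:**
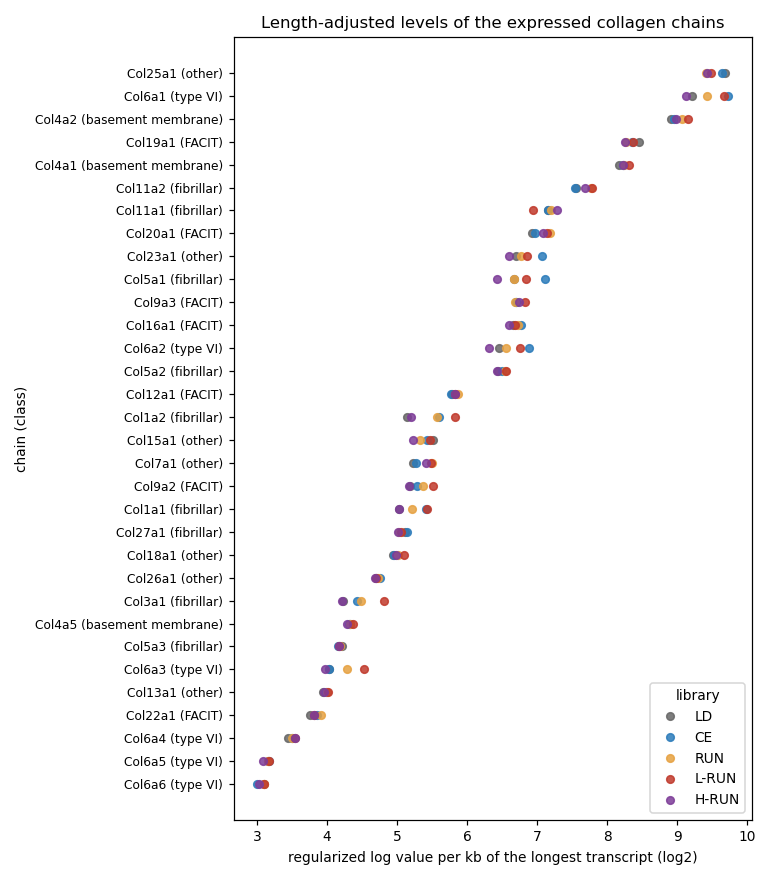
Levels of the 32 expressed collagen chains divided by the length of the longest annotated transcript in kilobases (log2), 1 point per library, ordered by their mean. Col25a1 and Col6a1 lead, and Col6a4, Col6a5 and Col6a6 are at the foot. The spread between libraries within a chain is small beside the spread between chains.

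Levels can be compared between chains only per length. Per kilobase of the longest transcript, on the log2 scale, the highest mean levels were those of Col25a1 (9.53), Col6a1 (9.44), Col4a2 (9.02), Col19a1 (8.35) and Col4a1 (8.24). The first and second of these changed places between libraries: Col6a1 was above Col25a1 in CE and L-RUN and below it in LD and H-RUN, and the values in RUN were 9.43 and 9.42. Col6a1 lay above its trimer partners Col6a2 (6.60) and Col6a3 (4.17), and Col1a2 (5.47) was close to Col1a1 (5.23). The alternative type VI chains had the lowest levels of the expressed chains, with 3.06 for Col6a6.

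CE was also compared with RUN directly. These groups differed in company, tunnels and running together, and the comparison cannot separate them. CE was higher than RUN for Col5a1 (0.44), Col6a2 (0.33) and Col6a1 (0.31), and Col23a1 was just outside at 0.298. The count was 3 higher and 0 lower of 32 chains, against 0.539% and 0.295% of all expressed genes. Col6a3 was on the other side, at -0.26, so that within type VI collagen the gap between Col6a1 and Col6a3 was 0.57. In this comparison Dcn was higher (0.48) and 4 of the 15 leptomeningeal markers were lower, Igf2 (-0.48), Aldh1a2 (-0.38), Slc6a13 (-0.34) and Slc22a6 (-0.31), with a median of -0.12 over the list. Of the 3 expressed choroid plexus markers 1 was higher, Ttr (0.44), with a median of 0.14. Of the 6 pyramidal cell markers 2 were higher, Fibcd1 (0.77) and Cpne7 (0.51), and 0 lower, with a median of 0.11. Their part in the differences of the chains was not tested. The type I chains, which were higher in both CE and L-RUN than in LD, differed by 0.20 (Col1a1) and 0.03 (Col1a2) between CE and RUN.

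The runners themselves were then compared by distance. Distance was not assigned but was that of the mice's own running. The paper states that effects of running and predisposing genetic factors therefore cannot be told apart. L-RUN was higher than H-RUN for 8 of 32 chains and lower for 1, against 0.561% and 0.974% of all expressed genes. The 8 were Col1a2 (0.62), Col3a1 (0.61), Col6a3 (0.56), Col6a1 (0.55), Col6a2 (0.44), Col5a1 (0.42), Col1a1 (0.39) and Col9a2 (0.35), and the chain on the other side was Col11a1. Of the 32 chains, 29 had a higher value in L-RUN than in H-RUN, against 48.6% of all expressed genes, and the median difference was 0.09, against -0.0028 for all expressed genes. L-RUN was the highest of the 5 libraries for 13 chains (40.6%, against 24.1% of all expressed genes), and H-RUN was the lowest for 15 (46.9%, against 15.7%). CE against LD and L-RUN against H-RUN share no library, although all 5 were normalized together. The chains higher in both were Col1a1, Col1a2, Col5a1, Col6a1 and Col6a2, 5 of the 6 higher in CE and 5 of the 8 higher in L-RUN. Among all expressed genes 14 were higher in both, 31.1% of the 45 higher in CE and 18.4% of the 76 higher in L-RUN, and the 5 chains are among these 14. In contrast, Col23a1 had 0.25 in L-RUN against H-RUN, and Col3a1 and Col6a3 had 0.20 and 0.00 in CE.

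**Figure D4:**
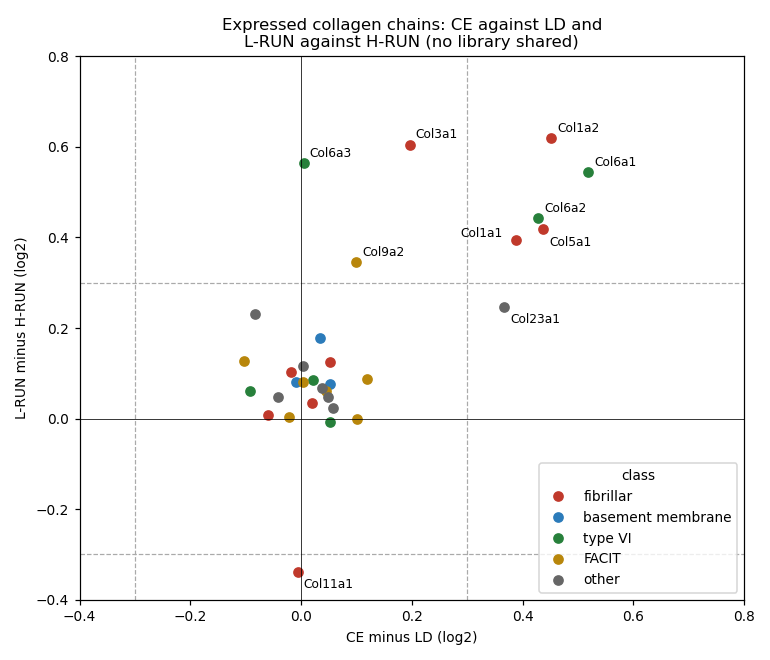
Difference of CE from LD (horizontal axis, log2) and of L-RUN from H-RUN (vertical axis, log2) for the 32 expressed collagen chains, colored by class, with dashed lines at 0.3 and -0.3. The axes share no library. Col1a1, Col1a2, Col5a1, Col6a1 and Col6a2 are past 0.3 on both axes, Col23a1 on the horizontal axis alone, Col3a1, Col6a3 and Col9a2 on the vertical axis alone, and Col11a1 is the single chain below -0.3.

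The enzymes and chaperones that make collagen were taken as a list of 32 genes, of which 29 were expressed. In L-RUN 2 of the 29 were higher than LD, Pcolce, which enhances the cleavage of procollagen (0.43), and Bmp1, the protease that removes the C-terminal propeptide of procollagen (0.30), and 0 were lower, against the 0.797% and 2.33% of all expressed genes given above. Serpinh1, the collagen chaperone of the endoplasmic reticulum, was just outside at 0.298. Its values were 8.34 in LD, 8.57 in CE, 8.64 in L-RUN, 8.30 in H-RUN and 8.49 in RUN, with L-RUN highest and H-RUN lowest, as for Col3a1, Col6a3 and Col9a2. Against H-RUN, L-RUN was higher for Pcolce and Serpinh1 (0.34 each), 2 of 29, against 0.561% of all expressed genes. In CE, RUN and H-RUN against LD, and in CE against RUN, 0 of the 29 passed in either direction. Pcolce (0.298) and Bmp1 (0.295) were just outside in RUN. In H-RUN Bmp1 differed from LD by 0.25 and Pcolce by 0.09. The median over the list was 0.04 in CE and 0.05 in L-RUN. The prolyl hydroxylases, which stabilize the triple helix, differed from LD by -0.12 (P4ha1), 0.06 (P4ha2) and 0.03 (P4ha3) in CE and by -0.03, -0.0021 and 0.02 in L-RUN. The lysyl hydroxylases, which prepare crosslinks, differed by -0.03 (Plod1), 0.04 (Plod2) and 0.21 (Plod3) in CE and by -0.10, 0.10 and 0.10 in L-RUN. The expressed lysyl oxidases, which form the crosslinks, differed by 0.08 (Loxl1), 0.07 (Loxl2) and 0.01 (Loxl3) in CE and by 0.13, 0.13 and 0.05 in L-RUN.

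Of 12 collagen receptors, 9 were expressed and 0 passed the cut-off in the 6 comparisons. Of all expressed genes 4.44% passed it in at least 1 of them, and with 9 genes 0 lies near that share. Gpr56, also named Adgrg1, was just outside in CE against RUN, at 0.296. Ddr1, a receptor tyrosine kinase that binds collagen, was above LD by 0.22 in CE, 0.24 in L-RUN and 0.24 in H-RUN. Itgb1, the common subunit of the collagen-binding integrins, was below LD by between -0.09 and -0.04 in the same libraries. Mrc2, which takes up collagen for degradation, had 0.24 in L-RUN and -0.02 in H-RUN.

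Markers of other cell types that the dissection can hold were set beside the chains. Among 18 markers of leptomeningeal fibroblasts 15 were expressed and 0 were collagen chains. In L-RUN 8 of the 15 were higher than LD and 0 lower, with a median of 0.35. In CE 1 of 15 was higher, Dcn (0.37), with a median of 0.05, and in H-RUN 0 were higher and 2 lower, Dcn (-0.52) and Ogn (-0.68), with a median of -0.02. Against H-RUN, L-RUN was higher for 10 of the 15, with a median of 0.40. The summed level of the list, as log2 of the sum of the linear values of all 18, was 12.51 in LD, 12.61 in CE, 12.89 in L-RUN, 12.40 in H-RUN and 12.64 in RUN. L-RUN was thus highest and H-RUN lowest, as for Col3a1, Col6a3 and Col9a2, while CE was highest for Col5a1, Col6a1, Col6a2 and Col23a1. Igf2, a growth factor of the meninges, had 9.65 in LD, 9.75 in CE, 10.75 in L-RUN, 9.60 in H-RUN and 10.23 in RUN. In CE the difference from LD was 0.09 for Igf2 and 0.37 for Dcn. The part of these markers in the differences of the chains was not tested.

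**Figure D5:**
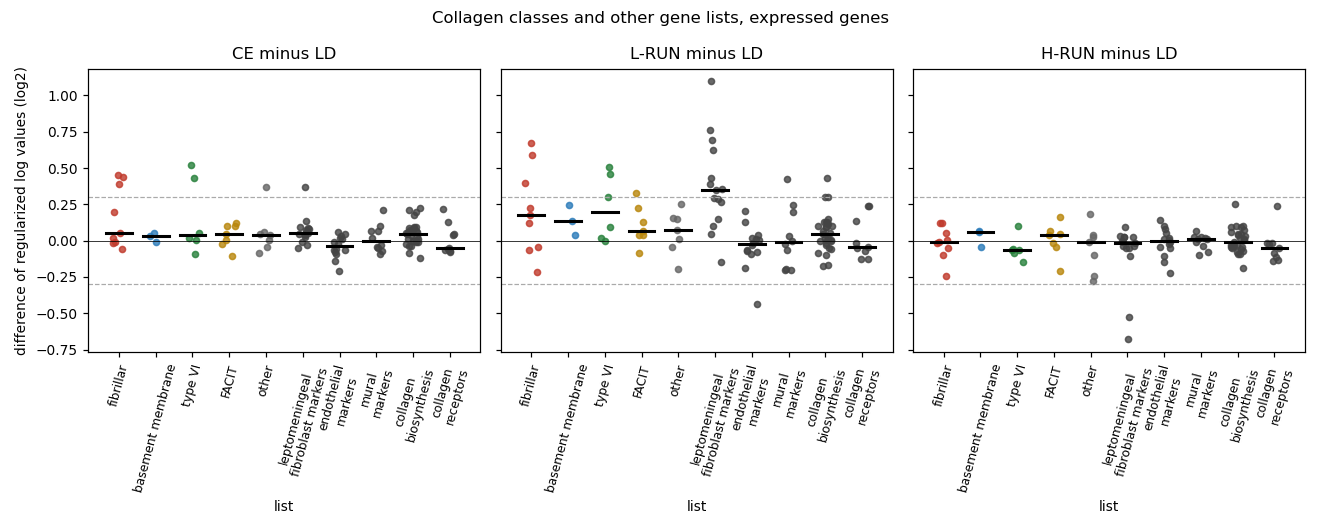
Differences from LD (log2) in CE, L-RUN and H-RUN for the expressed genes of each collagen class, of the marker lists of leptomeningeal fibroblasts, endothelial cells and mural cells, and of the lists of collagen biosynthesis and collagen receptors. Each point is a gene, black bars are medians and dashed lines mark 0.3 and -0.3. The leptomeningeal markers have a median of 0.35 in L-RUN and of 0.05 in CE.

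Of the 14 endothelial markers, all expressed, 0 were higher in the 4 comparisons with LD, and Flt1 was lower in RUN (-0.31) and L-RUN (-0.43). Their summed level lay between 12.53 and 12.59 in the 5 libraries. Of 11 markers of mural cells, the pericytes and smooth muscle of vessels, 10 were expressed. Vtn was higher in L-RUN (0.43), and Vtn and Acta2 were higher in L-RUN than in H-RUN. The mural sum was 11.66 in LD, 11.70 in CE, 11.82 in L-RUN, 11.67 in H-RUN and 11.74 in RUN. Among 8 markers of choroid plexus, 3 were expressed, and Ttr was higher in CE by 0.62. The dissection was also checked against neurons: the 8 dentate granule cell markers were all expressed, with sums between 14.77 and 14.93. In L-RUN C1ql2 (0.37) and Plk5 (0.36) were higher and Prox1 (-0.41) lower than LD, C1ql2 was also higher in RUN (0.37) and H-RUN (0.40), and in CE 0 of 8 passed, with a median of -0.17. The 6 markers of CA1 and CA3 pyramidal cells were expressed too, with sums of 13.30 in CE and 12.84 to 12.94 in the others. In L-RUN 4 of the 6 were lower than LD, Fibcd1 (-0.46), Pou3f1 (-0.42), Wfs1 (-0.33) and Spink8 (-0.30), with a median of -0.32. In CE Cpne7 (0.48) and Fibcd1 (0.31) were higher, with a median of 0.0053, and Fibcd1 was lower in RUN (-0.46) and H-RUN (-0.52). Against H-RUN, L-RUN was lower for Pou3f1 (-0.52), Wfs1 (-0.51) and Prox1 (-0.32). Of 6 astrocyte markers Slc1a2 and Slc1a3 were lower than LD in L-RUN, with a median of -0.14. Slc1a2 was also lower in L-RUN than in H-RUN (-0.33). Of 5 expressed thalamus markers Prkcd was lower in CE and L-RUN. Of 6 oligodendrocyte and 6 microglia markers 0 passed in any comparison, against 4.44% of all expressed genes in at least 1 of the 6. The oligodendrocyte markers were all below LD in L-RUN, from -0.23 to -0.12, with a median of -0.20. Their median in L-RUN against H-RUN was -0.17, and the microglia median in L-RUN against LD was -0.11. None of these lists had a marker at 0 in all libraries. The part of the mural, granule cell, pyramidal cell, astrocyte and oligodendrocyte markers in the differences of the collagen chains was not tested either.

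The chains share features that their names do not use. Their longest transcripts had a median length of 6083.5 bases (2781 to 11511), against 3518.5 for all expressed genes, and a median GC content of 56.3%, against 49.8%. Both features moved with the differences of all genes. In L-RUN against LD the median difference was 0.09 for the decile of genes with the shortest transcripts and -0.12 for that with the longest, and in CE against LD it was -0.07 for the decile with the lowest GC content and 0.08 for that with the highest. With the trend with length removed, Col3a1, Col6a3 and Col7a1 joined Col1a2 in RUN, for 4 chains, Col4a2, Col6a2 and Col7a1 passed the cut-off in L-RUN as well, for 9 chains, and Col11a1 in L-RUN against H-RUN had -0.28. With the trend with GC content removed, Col9a2 in L-RUN (0.26) and Col6a1 in CE against RUN (0.28) fell short of 0.3, and the other calls were kept. Most of the expressed chains were then below 0 in CE against LD. The part of length and GC content in the differences was not tested beyond this.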

How the data were processed

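RNA of the DG (TriZol and RNeasy extraction, TruSeq RNA libraries) was sequenced in 5 pooled libraries, 1 per group. Groups were taken from the sample labels and housing from the study's methods. The authors trimmed adapters, mapped reads to mm10 with TopHat2 2.0.10, used HTSeq for counts per RefSeq gene, and obtained regularized log values with DESeq2 1.10.1 (versions per the submitters' processing notes, which also name CASAVA 1.8.2). The deposited values are on the log2 scale and were used as they are, with no further normalization. Read counts were not used here, the depth of each library and the precision it would give are unknown, and no model of counts was fitted. The kit does not keep strand.

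Differences between libraries were counted past a cut-off of 0.3, the one in the study's methods, among genes with a mean of at least 5. For the technical SD, L-RUN and H-RUN were averaged as linear values, log2 of this average was subtracted from RUN, and the median absolute deviation was taken in each of 10 expression deciles, scaled by the variances 1.5 (residual) and 2 (difference) of a single library. Lengths and GC contents are of the longest GENCODE transcript of a symbol (99.3% of expressed genes). Lowess trends used a fraction of 0.3.

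Members, classes, pathway lists and marker lists were chosen with earlier results of these data known. All expressed chains could be named. Values in each library were planned for chains past the cut-off in any of the 6 comparisons and for trimer partners. The others were to be given by range and count. Values of further chains, such as Col25a1 and Col7a1, are also given, and some chains that were not expressed are named with their mean. Scripts were tested on simulated data. Tables were handled with pandas 2.3.3 and numpy 2.4.6, lowess came from statsmodels 0.14.6, and figures from matplotlib 3.10.9, under Python 3.11.15.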

Additional observations from a re-analysis of the deposited data

How the results depend on the processing

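With 1 library per group there was no replicate to leave out. No paired analysis was possible because each group has 1 library and no result comes from a test. Of 113 values of single chains under alternative settings, 101 stayed past the cut-off, 12 fell short of it and 0 changed sign. With the median baseline alone, 5 stayed past it and 8 fell short. Of 104 counts, 89 stayed within 1.5 times, among them counts that stayed at 0. Of 105 class medians, 37 moved by at least the technical SD. Removal of the trend with GC content was added after the data were seen.

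The cut-off of 0.2 gave 7 chains higher and 1 lower in RUN (1.46% and 3.20% of all expressed genes), 11 higher and 1 lower in L-RUN (3.23% and 6.70%), 4 lower in H-RUN (1.97%), and 6 higher and 4 lower in CE against RUN (2.35% and 1.13%). The cut-off of 0.4 gave 1 higher in CE against RUN (0.199%) and 0 lower in L-RUN against H-RUN (0.325%). With the median of the 5 libraries as the baseline in place of LD, 3 chains were higher in CE (0.325%), 0 in RUN (0.0590%) and 2 in L-RUN (0.199%), and 1 was lower in H-RUN (0.0590%). Each library is itself part of that baseline, so its difference is 0 where it is the median one. With the trend with transcript length removed, 4 were higher in RUN (0.406%) and 0 lower in L-RUN against H-RUN (0.672%).

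Class medians moved with the same choices. With the median baseline they were 0 (fibrillar), -0.0103 (basement membrane), 0 (FACIT) and 0 (other) in CE, 0.103 (fibrillar), 0.0760 (basement membrane), 0.118 (type VI) and 0.0182 (FACIT) in L-RUN, and -0.0580 (fibrillar), 0 (basement membrane) and 0 (FACIT) in H-RUN. With the length trend removed they were 0.0941 (fibrillar), 0.0754 (basement membrane) and 0.0929 (type VI) in CE, 0.29 (fibrillar), 0.22 (basement membrane), 0.27 (type VI) and 0.19 (FACIT) in L-RUN, and 0.0367 (fibrillar), 0.105 (basement membrane) and -0.0047 (type VI) in H-RUN. With the GC trend removed they were -0.0176 (basement membrane), -0.00657 (FACIT) and -0.0306 (other) in CE, 0.14 (fibrillar), 0.101 (basement membrane) and 0.0294 (other) in L-RUN, and -0.0493 (other) in H-RUN. A minimum mean of 7 gave 0.43 (type VI) and 0.0035 (FACIT) in CE, 0.46 (type VI) and 0.15 (other) in L-RUN, and -0.10 (other) in H-RUN. With no minimum other than a mean above 0 they were 0.132 (fibrillar), 0.0695 (basement membrane) and 0.0116 (other) in L-RUN and 0.0156 (basement membrane) in H-RUN. Quantile normalization and centring moved no class median beyond the technical SD, and quantile normalization put Col6a1 in CE against RUN at 0.298. Which of these choices is right was not tested.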
